A study of Mus musculus with 12 samples.

Results

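The alpha, pi and theta glutathione transferases of mouse liver were taken by gene symbol: Gsta1, Gsta2, Gsta3 and Gsta4 of the alpha class, Gstp1 and Gstp2 of the pi class, and Gstt1, Gstt2 and Gstt3 of the theta class. These are 9 of the 36047 genes with a matched transcript in the data, and all 9 were among the 14670 genes that had enough counts to be tested. Gsta1 passed that filter through the restricted mice, as it lay above the cutoff of 0.556 CPM, which are counts scaled to the library size, in all 6 of them and in only 2 of the 6 control mice. The other 8 genes lay above it in all 12 mice. Liver RNA was sequenced from 12 male C57Bl/6J mice aged 5 to 6 months, single housed, after 7 days on a diet and 4 h without food. By the paper's account the mice were also injected with deuterated water and then drank deuterium-labeled water. There were 4 groups of 3 mice. RF.Ctrl mice ate a regular-fat diet (18% of energy from fat) with control methionine, and RF.SAAR mice the same fat level with sulfur amino acid restriction. HF.Ctrl mice ate a high-fat diet (60% of energy from fat) with control methionine, and HF.SAAR mice a restricted high-fat diet. All 4 diets, those of the controls too, lacked cysteine and held equal nitrogen, and the SAAR diets held less methionine with glutamic acid in its place. The regular-fat and high-fat diets came from different vendors, so fat level and vendor cannot be told apart. The paper also reports that HF.SAAR mice took in less protein and sulfur amino acids, by weight, than RF.SAAR mice. That difference in intake cannot be told apart from fat level either. Each mouse was kept alone and gave 1 library, and p-values measure the spread between these mice.

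Glutathione transferases are dimeric enzymes that join the thiol of glutathione, a tripeptide built from cysteine, glutamate and glycine, to electrophilic drugs, toxins and products of lipid peroxidation. The conjugates leave the hepatocyte and are trimmed to mercapturates, so each conjugation spends a cysteine that the diet or the methionine pathway has to supply. Alpha-class enzymes also reduce lipid hydroperoxides, pi-class Gstp1 is an abundant transferase of male mouse liver, and theta-class enzymes act on small halogenated compounds and sulfate esters. Transcription of several of these genes is known to be induced through NRF2 at antioxidant response elements.

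Pairs of these genes are close copies, and kallisto, the tool of the authors, shares out by likelihood any read that fits more than 1 transcript. Of the words of 31 bases in the main transcript of each gene, 92.2% in Gsta1, 75.6% in Gsta2, 67.5% in Gstp1 and 78.1% in Gstp2 also occurred in another gene. The share was 27.0% in Gstt3, 1.05% in Gsta3, 0.695% in Gstt1 and 0 in Gsta4 and Gstt2. Gsta1 shared most with Gm3776, Gsta2 with Gm10639, and Gstp1 and Gstp2 with each other. Values of Gsta1 and Gstp2, the less abundant copy of each pair, are therefore uncertain, since a small share of the reads of the other copy would move them. The coding sequences of Gsta1 (672 bases) and Gsta2 (669 bases) were 97.5% identical and differed at 17 aligned positions, and those of Gstp1 and Gstp2 (633 bases each) were 98.1% identical and differed at 12. Between Gsta1 and Gsta3 the identity was 75.2%, between Gsta3 and Gsta4 66.9%, between Gstt1 and Gstt3 76.0% and between Gstt1 and Gstt2 62.3%. The 60 coding bases that differ most within each close pair are shown, as these letters tell the genes of the pair apart. Other genes that share their words, such as Gm3776 and Gm10639, were not aligned. Sequences are from the GENCODE transcripts of GRCm38, on the strand of the gene, and capitals mark the bases that differ within the pair.
Gsta1, coding bases 449 to 508, chr9:78241561-78241620, plus strand: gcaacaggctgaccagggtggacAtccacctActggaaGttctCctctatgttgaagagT
Gsta2, coding bases 449 to 508, chr9:78332125-78332184, minus strand: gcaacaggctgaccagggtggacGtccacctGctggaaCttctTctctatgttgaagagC
Gstp1, coding bases 1 to 60, chr19:4037374-4037863 with an intron inside, minus strand: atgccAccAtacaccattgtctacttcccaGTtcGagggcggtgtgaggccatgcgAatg
Gstp2, coding bases 1 to 60, chr19:4041668-4042165 with an intron inside, minus strand: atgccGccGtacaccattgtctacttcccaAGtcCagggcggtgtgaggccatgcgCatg
The first pair of windows differed at 5 bases and the second at 6, and the bases between them were the same in both copies.

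**Figure D1:**
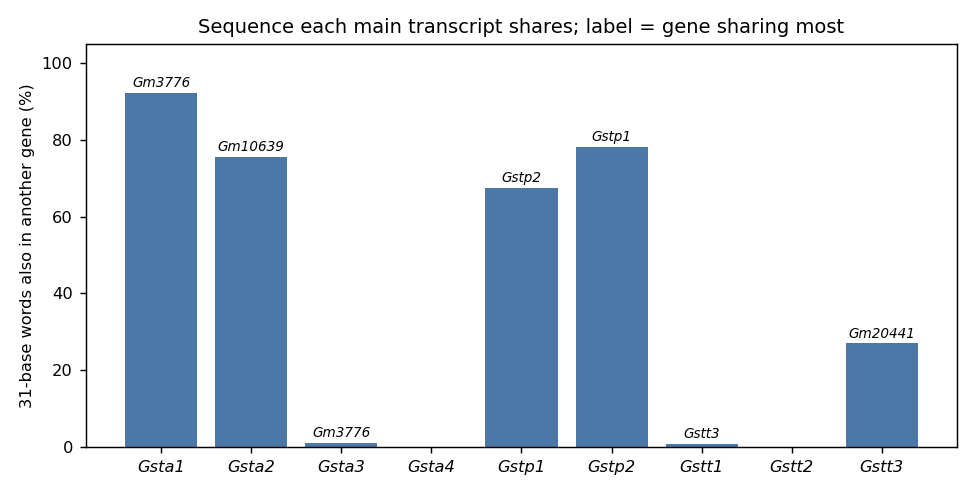
Share, in percent, of the 31-base words of the main transcript of each of the 9 genes that also occur in a transcript of another gene, with the gene that shares most written above the bar. Gsta1, Gsta2, Gstp1 and Gstp2 lie between 67.5% and 92.2%, Gstt3 at 27.0%, and the other 4 genes at 1.05% or less.

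Promoters were available for 7 of the 9 genes, without Gsta4 and Gstt2. The 250 bases before the start sites of Gsta1 and Gsta2 are shown because these neighbours on chromosome 9 were the members called in the average over fat. Gsta1 was called at neither fat level alone, and it passed the filter through the restricted mice. The sequences are from RefSeq, GRCm38.p6, 5′ to 3′ on the strand of the gene. Capitals mark bases that differ or have no partner when both are aligned (191 of 263 aligned columns, or 72.6%, were identical). The RefSeq start of Gsta2 lies inside the longer gene of the GENCODE annotation.
Gsta1, chr9:78230419-78230668, plus strand: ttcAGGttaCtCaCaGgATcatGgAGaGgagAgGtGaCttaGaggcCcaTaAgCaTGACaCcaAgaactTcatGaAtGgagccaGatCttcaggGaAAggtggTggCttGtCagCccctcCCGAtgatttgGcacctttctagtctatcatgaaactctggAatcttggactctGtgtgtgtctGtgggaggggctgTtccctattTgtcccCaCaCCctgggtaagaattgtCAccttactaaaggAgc
Gsta2, chr9:78347146-78347395, minus strand: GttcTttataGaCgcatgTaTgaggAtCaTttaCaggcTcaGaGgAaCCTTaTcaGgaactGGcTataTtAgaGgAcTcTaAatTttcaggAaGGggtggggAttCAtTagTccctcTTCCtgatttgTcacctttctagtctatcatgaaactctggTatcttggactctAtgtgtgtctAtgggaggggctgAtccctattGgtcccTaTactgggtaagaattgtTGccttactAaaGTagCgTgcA
The core of the antioxidant response element was searched as TGACNNNGC on both strands of the 250 bases before the start site. It was found in neither of these windows and in 1 of the 7 promoters, against 10.2% of 32851 mouse promoters. That promoter belongs to Gsta3, where the core, in capitals here, begins 121 bases before the start site.
Gsta3, chr1:21240335-21240584, plus strand: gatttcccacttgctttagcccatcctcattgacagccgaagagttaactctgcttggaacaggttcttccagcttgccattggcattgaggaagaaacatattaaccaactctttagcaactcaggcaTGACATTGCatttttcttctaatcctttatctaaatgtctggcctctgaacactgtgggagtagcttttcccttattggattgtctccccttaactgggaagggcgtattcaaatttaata
The composite site of ATF4 and C/EBP factors, searched as TGATGNAAN on both strands of the same 250 bases, was in 0 of the 7 promoters and in 3.44% of all. Bases further upstream were not searched, so a site there would be missed. A match of letters is a description and is no measured site.

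Libraries held between 16203094 and 21230092 estimated counts, and no pair of libraries was identical. All 6 hepatocyte markers were tested, and their summed CPM were 81703 to 94283 in RF.Ctrl, 73242 to 80444 in RF.SAAR, 77605 to 91027 in HF.Ctrl and 76206 to 86712 in HF.SAAR. Every RF.SAAR mouse was below every RF.Ctrl mouse in this sum, while the high-fat groups overlapped, and its part in the results was not tested. All 12 markers of pancreatic acinar cells were detected, and their sum was above 1000 CPM in 5 mice, namely 1140 in RF.Ctrl mouse 1, 1400 and 5089 in HF.Ctrl mice 1 and 2, and 2901 and 13950 in HF.SAAR mice 2 and 3, against 36.4 to 73.7 in the other 7. Cholangiocyte markers (5 of 6 tested) summed to 43.0 to 62.1 CPM in the 6 control mice and to 35.2 to 43.1 in the 6 restricted mice. The markers of erythroid cells (all 4 tested) ranged from 420 to 638 CPM in the control mice and from 231 to 519 in the restricted mice. In whole liver, fewer cells of a type and less RNA per cell cannot be told apart.

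Gsta2 rose under restriction at both fat levels, and it was the 1 member called at each of them. Gsta2 (ENSMUSG00000057933, chr9:78331018-78355788, minus strand) encodes an inducible alpha-class subunit with conjugating and peroxidase activity. Values are CPM scaled by TMM factors, which correct for differences in library composition. Gsta2 stood at 18.2, 21.7 and 16.3 CPM in the RF.Ctrl mice, at 33.95, 57.8 and 43.0 in RF.SAAR, at 19.0, 19.4 and 21.9 in HF.Ctrl, and at 86.8, 112 and 92.5 in HF.SAAR. Every restricted mouse was above every control mouse, and every HF.SAAR mouse was above every RF.SAAR mouse. The group means were 18.7 ± 2.74, 44.9 ± 12.1, 20.1 ± 1.57 and 97.1 ± 13.3 CPM (SD, n = 3 each). On regular fat the log2 fold change of RF.SAAR over RF.Ctrl was 1.26 (SE 0.177), or 2.40-fold, with an adjusted p of 0.0043 in edgeR's quasi-likelihood test over all genes. On high fat the log2 fold change of HF.SAAR over HF.Ctrl was 2.27 (SE 0.181), or 4.83-fold, with an adjusted p of 2e-05. Averaged over both fat levels it was 1.77 (SE 0.126, adjusted p = 5.79e-06). Gsta2 kept this call under all 23 alternatives, 12 of which were fits without 1 mouse, and they gave 1.60 to 1.92.

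Gsta2 was also the 1 member called between the restricted groups. HF.SAAR exceeded RF.SAAR by 1.11 on the log2 scale (SE 0.173), or 2.16-fold, with an adjusted p of 0.0452 in edgeR's test. HF.Ctrl and RF.Ctrl overlapped, and differed by 0.10 on the log2 scale (SE 0.178, adjusted p = 1). The difference of the restriction effects at high and regular fat, tested as an interaction, was 1.01 (SE 0.247) with an unadjusted p of 0.00126 and an adjusted p of 0.999, so it did not pass over all genes. Of all genes, 0.00682% were called in that interaction. The call between the restricted groups was lost under 6 of 12 alternative settings and in 11 of 12 fits without 1 mouse. Over those fits the adjusted p ran from 0.0141 (without RF.SAAR mouse 2, the 1 fit that kept the call) to 0.304 (without RF.SAAR mouse 3). HF.SAAR mice 2 and 3 were over 1000 CPM of acinar markers, and mouse 1, with 58.0 CPM of acinar markers, had 86.8 CPM of Gsta2. That value too was above all 3 RF.SAAR mice. Without the 5 mice over 1000 CPM of acinar markers, 1 mouse remained in each high-fat group and was assumed to vary like the mice of the other groups. The log2 fold changes were 1.24 on regular fat (adjusted p = 0.104) and 1.97 on high fat (adjusted p = 0.207).

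**Figure D2:**
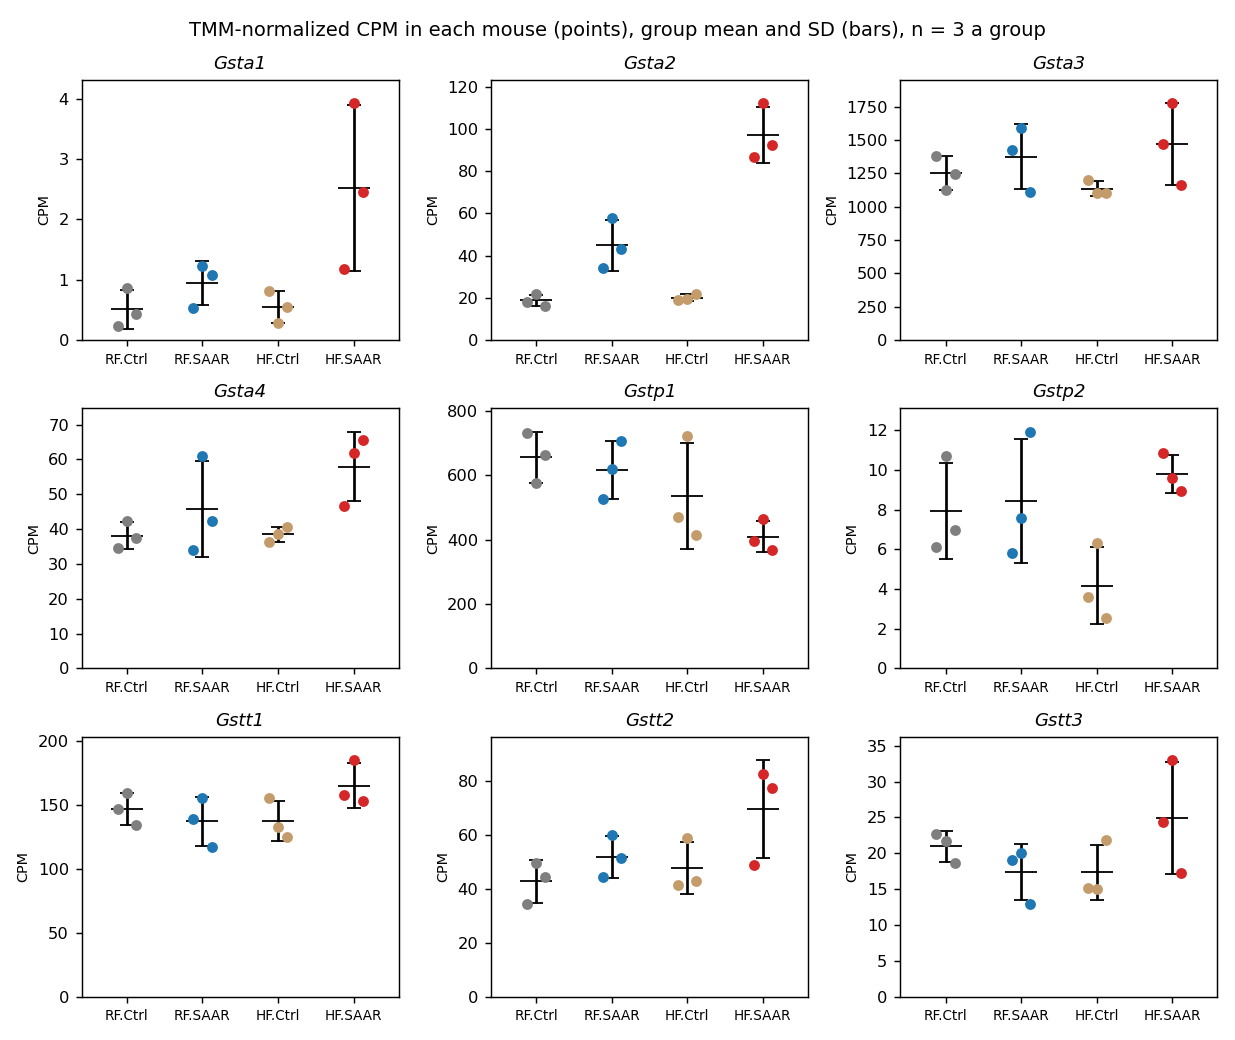
TMM-normalized CPM of each of the 9 genes in each mouse (points), with the group mean and SD (bars, n = 3), on axes that start at 0 and differ between panels. The 6 SAAR mice lie above the 6 Ctrl mice for Gsta2, between 33.95 and 112 CPM against 16.3 to 21.9, and the groups overlap for most other genes.

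**Figure D3:**
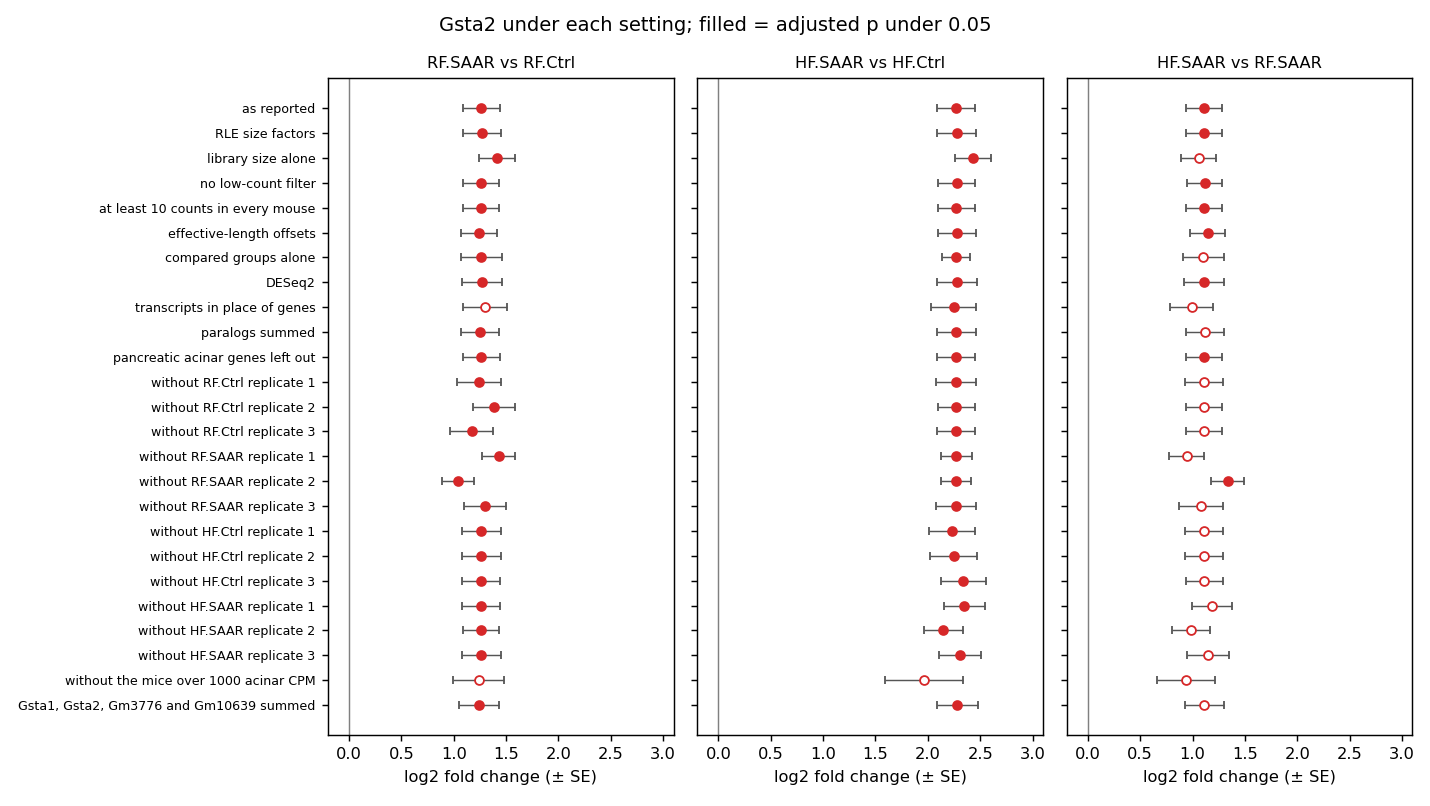
Log2 fold change of Gsta2 (± SE) as reported and under each alternative setting, in a panel for each contrast, with filled symbols where the adjusted p is under 0.05. The value runs from 1.04 to 1.43 on regular fat (called in 22 of 24 alternatives), from 1.97 to 2.43 on high fat (23 of 24) and from 0.94 to 1.34 between HF.SAAR and RF.SAAR (7 of 24).

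Gsta1 (ENSMUSG00000074183, chr9:78230656-78242684, plus strand), the close copy of Gsta2, was read from few counts. It stood at 0.229, 0.870 and 0.425 CPM in RF.Ctrl, at 0.533, 1.22 and 1.08 in RF.SAAR, at 0.819, 0.278 and 0.549 in HF.Ctrl, and at 1.18, 3.93 and 2.45 in HF.SAAR. These are estimated counts of 3.64 to 75.8. HF.SAAR did not overlap HF.Ctrl, while RF.SAAR overlapped RF.Ctrl. The log2 fold change was 0.87 on regular fat (SE 0.592, adjusted p = 0.602), 2.21 on high fat (SE 0.579, adjusted p = 0.076) and 1.54 averaged over fat (SE 0.414, adjusted p = 0.0398), the last of which was a call in edgeR's test. That call was lost in 11 of 20 alternatives, and the log2 fold change ran from 0.80 to 1.93 over all 20. Of these losses 8 came in fits without 1 mouse, namely without RF.Ctrl mouse 1 or 3, RF.SAAR mouse 2 or 3, HF.Ctrl mouse 2 or 3, or HF.SAAR mouse 2 or 3, with adjusted p between 0.0694 and 0.102 in edgeR's test.

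The sum of Gsta1, Gsta2 and their neighbours Gm3776 and Gm10639, which were added after their values had been seen, does not depend on how reads are divided among these copies. In CPM it was 19.6, 23.3 and 17.0 in RF.Ctrl, 34.5, 61.5 and 45.7 in RF.SAAR, 19.8, 20.1 and 23.0 in HF.Ctrl, and 89.4, 119 and 97.8 in HF.SAAR. As for Gsta2, every restricted mouse was above every control mouse and every HF.SAAR mouse above every RF.SAAR mouse. Gsta2 made up 93.0% to 98.5% of the sum in each mouse. Fitted as 1 gene, the sum rose by 1.24 on regular fat (adjusted p = 0.00661) and by 2.28 on high fat (adjusted p = 5.65e-05), both as log2 fold changes in edgeR's test. Between HF.SAAR and RF.SAAR it was 1.11 (adjusted p = 0.0809), short of the threshold. Gm3776 alone ranged from 0 to 2.87 CPM, and Gm10639 was 0 in 11 mice.

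Gsta3 (ENSMUSG00000025934, chr1:21240589-21265661, plus strand) encodes the alpha-class enzyme known for conjugating the epoxide of aflatoxin in mice, and it was the most abundant member. Its CPM were 1379, 1122 and 1245 in RF.Ctrl, 1425, 1590 and 1106 in RF.SAAR, 1197, 1103 and 1100.2 in HF.Ctrl, and 1470.0, 1773 and 1164 in HF.SAAR. Restricted and control mice overlapped at both fat levels. The log2 fold change was 0.14 on regular fat (SE 0.153, adjusted p = 0.799) and 0.37 on high fat (SE 0.154, adjusted p = 0.319). Gsta4 (ENSMUSG00000032348, chr9:78182774-78209349, plus strand) encodes the alpha-class enzyme that prefers 4-hydroxynonenal and related alkenals, and it shared no 31-base word with another gene. Its CPM were 34.6, 42.2 and 37.4 in RF.Ctrl, 33.95, 61.0 and 42.4 in RF.SAAR, 36.4, 38.6 and 40.7 in HF.Ctrl, and 46.6, 61.7 and 65.4 in HF.SAAR. The high-fat groups did not overlap and the regular-fat groups did. The log2 fold change was 0.27 on regular fat (SE 0.185, adjusted p = 0.611), 0.59 on high fat (SE 0.185, adjusted p = 0.156) and 0.43 averaged over fat (SE 0.131, adjusted p = 0.0731), none of which passed in edgeR's test. In the average it was called by DESeq2 (adjusted p = 0.0269), with library size alone, and without RF.SAAR mouse 1 or HF.SAAR mouse 1 (adjusted p = 0.0215 and 0.0479 in edgeR). On high fat it was called with library size alone and without RF.SAAR mouse 2 (adjusted p = 0.0481 in edgeR).

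Gstp1 (ENSMUSG00000060803, chr19:4035407-4037985, minus strand), the main pi-class enzyme, was second in level. Its mean CPM was lowest in the HF.SAAR mice, which overlapped the HF.Ctrl mice. Its CPM were 733, 575 and 663 in RF.Ctrl, 526, 621 and 707 in RF.SAAR, 471, 723 and 416 in HF.Ctrl, and 395, 465 and 369.7 in HF.SAAR. All HF.SAAR mice lay below all RF.SAAR mice, with a log2 fold change of -0.59 (SE 0.188) that had an unadjusted p of 0.00784 and an adjusted p of 0.653. Groups did not overlap in this direction for 4.68% of all genes. The restriction effects were -0.09 on regular fat (SE 0.187, adjusted p = 0.92) and -0.39 on high fat (SE 0.187, adjusted p = 0.43). Gstp2 (ENSMUSG00000038155, chr19:4040285-4046023, minus strand), its neighbour and close copy, had CPM of 6.12, 10.7 and 6.99 in RF.Ctrl, 5.81, 7.58 and 11.9 in RF.SAAR, 3.62, 6.34 and 2.56 in HF.Ctrl, and 10.8, 9.61 and 8.95 in HF.SAAR. All HF.SAAR mice lay above all HF.Ctrl mice, while the regular-fat groups overlapped. The log2 fold change was 0.09 on regular fat (SE 0.324, adjusted p = 0.957) and 1.22 on high fat (SE 0.337, adjusted p = 0.0992). The latter was called by DESeq2 (adjusted p = 0.0102), with library size alone and without HF.Ctrl mouse 2 (adjusted p = 0.0303 in edgeR). In the average Gstp2 was called with library size alone and without HF.Ctrl mouse 2 (adjusted p = 0.0304 in edgeR). The interaction was 1.14 (SE 0.467, unadjusted p = 0.0313, adjusted p = 0.999).

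The theta-class genes lie near each other on chromosome 10, and none was called in any comparison by edgeR at the settings used here. Gstt2 was called with library size alone, on high fat (adjusted p = 0.0492) and in the average (adjusted p = 0.0121), and in the average without HF.SAAR mouse 1 (adjusted p = 0.0375). Gstt1 (ENSMUSG00000001663, chr10:75783813-75798584, minus strand), which acts on small halogenated compounds such as dichloromethane, had CPM of 147, 159 and 134 in RF.Ctrl, 139, 155 and 117 in RF.SAAR, 155, 133 and 125 in HF.Ctrl, and 158, 185 and 153 in HF.SAAR. Gstt2 (ENSMUSG00000033318, chr10:75831114-75837424, minus strand), known for cleaving arylmethyl sulfates, had CPM of 34.2, 49.7 and 44.2 in RF.Ctrl, 44.5, 60.02 and 51.2 in RF.SAAR, 41.2, 58.7 and 42.8 in HF.Ctrl, and 48.8, 82.4 and 77.2 in HF.SAAR. Gstt3 (ENSMUSG00000001665, chr10:75774115-75781414, minus strand) had CPM of 22.7, 21.7 and 18.6 in RF.Ctrl, 19.1, 20.1 and 12.9 in RF.SAAR, 15.2, 15.0 and 21.8 in HF.Ctrl, and 24.4, 33.0 and 17.3 in HF.SAAR. The restricted and control mice of each fat level overlapped for all 3 genes. The log2 fold changes on regular fat were -0.10 for Gstt1 (SE 0.128), 0.28 for Gstt2 (SE 0.211) and -0.27 for Gstt3 (SE 0.234), and those on high fat were 0.26 (SE 0.128), 0.55 (SE 0.211) and 0.52 (SE 0.234). The smallest adjusted p among these 6 values was 0.282, for Gstt2 on high fat. The interaction of Gstt3 was 0.79 (SE 0.331, unadjusted p = 0.033, adjusted p = 0.999).

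**Figure D4:**
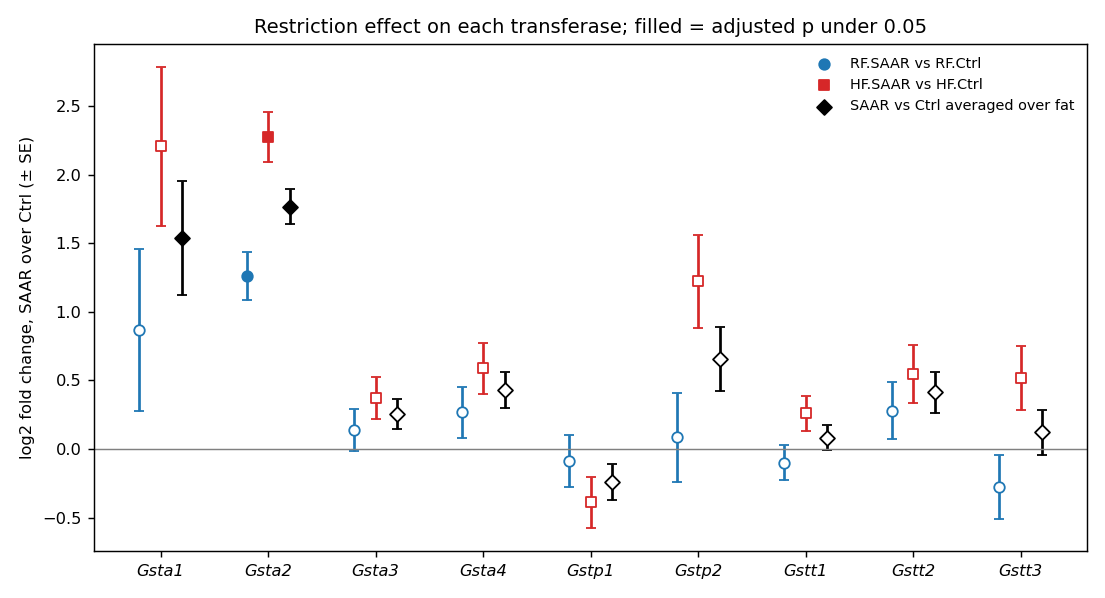
Log2 fold change of SAAR over Ctrl (± SE) for each of the 9 genes on regular fat, on high fat and averaged over fat, with filled symbols where the adjusted p is under 0.05. Gsta2 is filled in all 3 contrasts at 1.26, 2.27 and 1.77, and Gsta1 only in the average at 1.54.

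Across the 9 genes, 1 was called on regular fat (Gsta2), 1 on high fat (Gsta2) and 2 in the average (Gsta1 and Gsta2), all higher in restricted mice. The call of Gsta1 concerns a gene that passed the filter through those mice. Of all genes, 1.49% were called on regular fat (0.6% higher), 1.97% on high fat (1.01% higher) and 6.92% in the average (3.22% higher). Between the restricted groups 1 member was called, against 0.0477% of all genes. Between the control groups 0 members and 0% of all genes were called by edgeR, where 527 genes had an unadjusted p under 0.05 and DESeq2 called 31 genes. The log2 fold change was above 0 for 6 members on regular fat and for 8 on high fat, with medians of 0.14 and 0.55, where the median of all genes was 0.00 in both. Restricted mice lay above control mice without overlap for 1 member on regular fat (8.51% of all genes), for 4 on high fat (Gsta1, Gsta2, Gsta4 and Gstp2; 8.88% of all genes), and for 1 when all 6 were set against all 6 (1.94%). HF.SAAR mice lay above RF.SAAR mice without overlap for Gsta2 alone, against 5.47% of all genes. Scaling by library size alone, which raised the median of all genes by 0.16 to 0.17, called 6 members on high fat and 6 in the average, where it called 4.9% and 16.7% of all genes. The members it added on high fat were Gsta1, Gsta3, Gsta4, Gstp2 and Gstt2. DESeq2 added Gsta1 and Gstp2 on high fat, where it called 4.66% of the genes it tested, and Gsta4 in the average (adjusted p = 0.0269), where it called 9.03%.

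Levels were compared between genes in TPM, which divide counts by effective length and are not corrected for composition. In RF.Ctrl mice Gsta3 led with 1368 ± 60.4 TPM (SD, n = 3), followed by Gstp1 with 1129 ± 70.1 and Gstt1 with 184 ± 21.5. Then came Gstt2 with 70.0 ± 21.1, Gsta4 with 52.3 ± 8.01, Gsta2 with 33.6 ± 6.02, Gstp2 with 22.9 ± 7.52 and Gstt3 with 14.2 ± 1.002 TPM. Gsta1 was last with 0.969 ± 0.601 TPM, and of these neighbours Gstt2 and Gsta4, and Gsta2 and Gstp2, overlapped. The top 3 kept their order in all 4 groups, although Gsta3 and Gstp1 overlapped in HF.Ctrl (1124 ± 161 and 810 ± 132 TPM). Gsta2 changed place. By TPM it ranked 6 of 9 in both control groups, and it ranked 4 of 9 in RF.SAAR with 94.4 ± 16.8 TPM, where it overlapped Gstt2 at 93.4 ± 10.1. In HF.SAAR it again ranked 4, with 199 ± 7.12 TPM, above Gstt2 (114 ± 29.2) and below Gstt1 (235 ± 2.46) in every mouse. By CPM, which are not divided by length, it ranked 7 in RF.Ctrl, 6 in RF.SAAR and HF.Ctrl, and 4 in HF.SAAR.

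**Figure D5:**
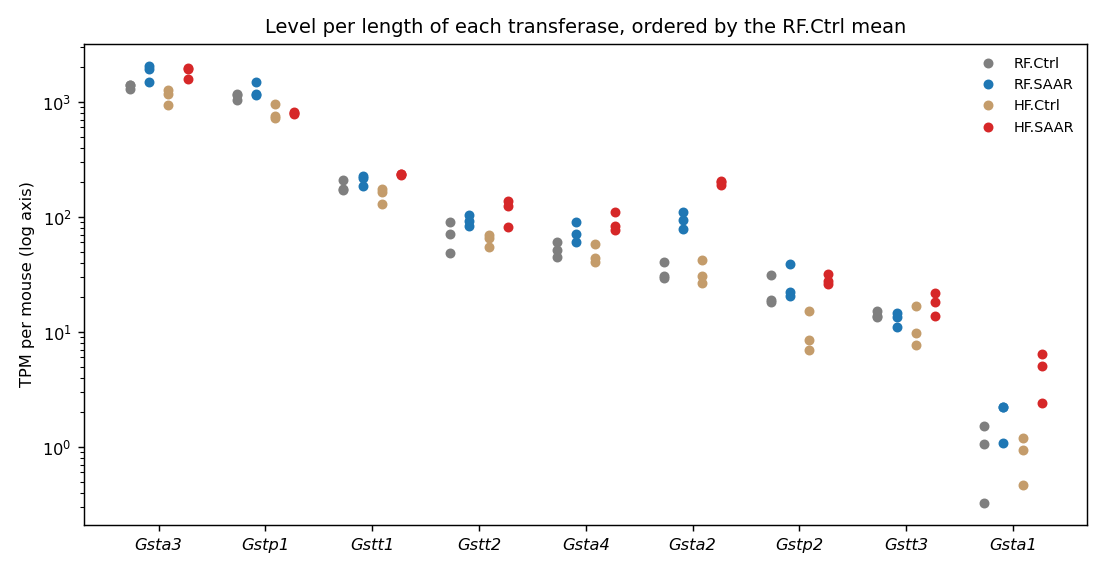
TPM of each of the 9 genes in each mouse on a log axis, ordered by the RF.Ctrl mean, with 1 colour for each group. Gsta3 and Gstp1 lie highest, Gsta1 lowest, and the SAAR points of Gsta2 lie above its Ctrl points, up to a mean of 199 TPM in HF.SAAR against 33.0 in HF.Ctrl. TPM are not corrected for composition, so the size of a difference between groups is to be read from the fits.

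Over the counts of all 12 mice together, 1 transcript held 93.4% to 100% of the gene for Gsta1, Gsta4, Gstp1, Gstt1 and Gstt3. Single mice differed from this, as the main transcript of Gsta1 (95.3% of its pooled counts) was estimated at 0% in RF.Ctrl mouse 3 and HF.Ctrl mouse 2, and that of Gstt3 at 85.9% in RF.Ctrl mouse 3. Gsta2 divided its counts among ENSMUST00000034902 (66.7%), ENSMUST00000129247 (26.8%) and ENSMUST00000125479 (6.48%). The first rose by 2.25 on high fat (adjusted p = 0.00181, edgeR over all transcripts) and the second by 2.60 (adjusted p = 0.0015), as log2 fold changes. On regular fat they were 1.30 (adjusted p = 0.0502) and 1.07 (adjusted p = 0.159), which did not pass. ENSMUST00000129247 made up 20.9% to 21.6% of the Gsta2 counts in RF.SAAR and 28.5% to 32.3% in HF.SAAR, without overlap, against 17.9% to 27.6% in the control mice. The difference of these shares between restricted groups was noticed in the values and was not tested. In its own level this transcript differed by 1.61 on the log2 scale between HF.SAAR and RF.SAAR (SE 0.23, adjusted p = 0.195 in edgeR over all transcripts), which did not pass. The share of the main transcript of Gsta2 was 67.0% in control and 67.5% in restricted mice, a difference of 0.492 percentage points (exact permutation test within fat level, two-sided, p = 0.9). The same exact permutation test gave -1.64 points for Gsta3 (p = 0.03), 3.35 for Gstp2 (p = 0.47) and 4.51 for Gstt2 (p = 0.065), and no adjusted p of the 4 was under 0.12.

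The other 17 glutathione transferases, mostly of the mu class and the membrane family, were set beside the members. In the average 3.22% of all genes were called higher and 3.7% lower, against which the counts of this and the following lists are to be read. Of the 15 tested, 1 rose on regular fat and 6 on high fat, and in the average 6 rose and 1 fell, with a median log2 fold change of 0.12 in the average. Gstm1, an abundant mu-class enzyme, rose from 598 ± 67.1 to 907 ± 40.3 CPM on regular fat and from 463 ± 21.9 to 1151 ± 48.8 on high fat (averaged log2 fold change 0.96, SE 0.0668, adjusted p = 4.38e-06). In the average Gstm2 rose by 1.09 (SE 0.137, adjusted p = 0.000495) and Gstm3 by 1.18 (SE 0.147, adjusted p = 0.000517). The gene that fell was Mgst1, a microsomal transferase and peroxidase, at -0.51 (adjusted p = 0.00779), named after its value was seen.

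Genes of glutathione synthesis and of thiol redox reactions gave no call at either fat level, and 3 of 11 rose in the average, with a median of 0.26. They were Gss, glutathione synthetase, at 0.33 (SE 0.0675, adjusted p = 0.00974), Txnrd1, thioredoxin reductase, at 0.39 (SE 0.0893, adjusted p = 0.0188), and Glrx, glutaredoxin, at 0.53 (SE 0.133, adjusted p = 0.0297). In the mercapturate pathway, which processes the conjugates, 0 of 18 tested genes rose and 3 fell in the average, with a median of -0.05. The acetyltransferase family genes Nat8f2 and Nat8f1 fell by 0.53 (SE 0.0831, adjusted p = 0.00202) and by 0.43 (SE 0.0845, adjusted p = 0.0079), and Acy3, an aminoacylase that acts on mercapturates, fell by 0.50 (SE 0.1, adjusted p = 0.00879). All adjusted p-values here are from edgeR over all genes.

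Known targets of NRF2 outside the transferases, Txnrd1 among them, rose in part. Of 20 tested, 4 were called higher on regular fat, 4 on high fat and 7 in the average, with 0 lower and a median of 0.41 in the average. Ephx1, microsomal epoxide hydrolase, rose by 0.70 in the average (SE 0.0728, adjusted p = 9.41e-05), Ugdh, which makes UDP-glucuronate, by 0.84 (SE 0.103, adjusted p = 0.000323), and Nqo1, a quinone reductase, by 0.87 (SE 0.124, adjusted p = 0.000915). Nqo1 was called on high fat (1.40, adjusted p = 0.000936) and not on regular fat (0.34, adjusted p = 0.432), and its interaction had an adjusted p of 0.999. Of 15 tested targets of the drug receptors CAR and PXR, 1 rose and 2 fell in the average, with a median of 0.09. These were Slco1a4, an uptake transporter, at 0.73 (adjusted p = 0.0434), Cyp2c50 at -0.47 (adjusted p = 0.00208) and Cyp3a11 at -0.75 (adjusted p = 0.0373). Among 13 transcription factors of drug metabolism 1 was called in the average, Nr1i3, which encodes CAR itself, at 0.58 (adjusted p = 0.042), with a median of 0.08. The counts of these last 2 lists, 3 of 15 and 1 of 13, stand beside 6.92% of all genes called in either direction, and the second is near that share.

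Pi-class transferase is male-predominant in mouse liver, so sex-biased genes were set beside Gstp1. Of 12 male-biased genes, 6 fell on regular fat, 8 on high fat and 11 in the average, with 0 higher and a median of -0.98. The averaged values were -1.32 for C9, a complement component (adjusted p = 1.44e-06), -2.55 for Selenbp2 (adjusted p = 3.48e-05) and -0.82 for Cyp2d9 (adjusted p = 6.64e-05). Gstp1 in the same contrast was -0.24 (SE 0.132, adjusted p = 0.351), which did not pass. Of 16 female-biased genes only 4 had enough counts, and 1, Fmo2, rose by 0.55 (adjusted p = 0.0302). In none of these lists was a gene called between HF.SAAR and RF.SAAR or between HF.Ctrl and RF.Ctrl.

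For each member the 3 genes nearest in pattern were found among all tested genes, by the root mean square (RMS) difference of log2 CPM, centred over the 12 mice. Gsta2, whose own RMS deviation was 0.983, was nearest to Pck2, mitochondrial phosphoenolpyruvate carboxykinase, at 0.349, then to Defb1 at 0.415 and Cyp3a59 at 0.442. Pck2 averaged 3.48 CPM without and 8.93 CPM with restriction on regular fat, and 3.56 and 13.1 CPM on high fat. Gsta1 was nearest to Gsta2 at 0.508, which its shared sequence limits as a comparison, then to Cyp3a59 at 0.546 and Gstm2 at 0.603. Gsta3 was nearest to Sdhd at 0.098, Arg1 at 0.105 and Cdo1, cysteine dioxygenase, at 0.105. Gsta4 was nearest to Pcgf1, C2cd2l and Tceal9 (0.162 to 0.171), and Gstt2 to Gsta4 at 0.178, then Plscr1 and Cdk4. Gstp1 was nearest to Gpat4, Nprl3 and Gm2a (0.181 to 0.211), and Gstp2 to Mmd2, Cd300e and Cyp4f16 (0.318 to 0.33). Gstt1 was nearest to Hsd11b1, Apoh and Gnptg (0.083 to 0.0934), and Gstt3 to Serpina3m, Ttc21b and Plscr2 (0.195 to 0.22). These distances are descriptions over the same 12 libraries, and they are small where a gene varied little, as Gstt1 did with an RMS deviation of 0.171.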

How the data were processed

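Liver libraries of 12 mice (3 in each of 4 groups) were prepared from polyadenylated RNA and sequenced as read pairs. The authors trimmed reads with cutadapt and ran kallisto on the transcripts of Ensembl 94. The deposited values are its estimated counts per transcript and TPM, with no normalization between mice, no filter on low counts and no pooling. The deposited TPM served to order genes within a group, to show levels in each mouse, and to weight effective lengths in the alternative that used them. Read assignment was not repeated.

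Transcripts were matched to GENCODE annotation of GRCm38 (116816 of 118489, and those unmatched held 1.08% of counts), summed per gene and rounded. Groups were compared in R 4.3.3 with edgeR 4.0.16 (TMM, filterByExpr by group, robust quasi-likelihood F-test over all 12 mice), with Benjamini-Hochberg adjustment over 14670 genes. A gene was called at an adjusted p under 0.05. The SE is the size of the log2 fold change divided by the square root of F. Exact permutations were computed in Python 3.11.15 with numpy 2.4.6. Named are all members, their transcripts with at least 5% of counts, up to 3 called genes per list with the smallest averaged p, and the 3 nearest genes in pattern. Alternatives included DESeq2 1.42.0, other scalings, filters and counting units, and leaving out each mouse. The members and lists were chosen with earlier results of these data known. The counts are not molecules, so the spread between mice gives the precision.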

Additional observations from a re-analysis of the deposited data

How the results depend on the processing

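Alternatives were RLE size factors, library size alone, no filter on low counts, a floor of 10 counts per mouse, effective-length offsets, the compared groups alone, DESeq2, transcripts, summed paralogs, a library without acinar genes, and leaving out each mouse. Leaving out the 5 mice with over 1000 CPM of acinar markers and summing Gsta1, Gsta2, Gm3776 and Gm10639 were chosen after seeing the data. No paired analysis was possible because the labels give no replicate numbers. Of the members' log2 fold changes under other settings, 562 of 599 kept their direction and their side of the threshold, 12 reversed, 13 gained a call and 12 lost one. In fits without 1 mouse these were 610 of 648, 13, 6 and 19. The causes were not tested. The acinar fit left out 5 mice, so the smaller number of mice and the removal of acinar-rich libraries cannot be told apart.

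The number of members called on regular fat was 0 with transcripts, where 0.148% of all transcripts tested were called. On high fat it was 6 with library size alone (4.9% of all genes called), 3 with DESeq2 (4.66%) and 2 without a filter (Gsta1 added, 1.12%). Without 1 mouse it was 1 to 2 there (0.731% to 2.07%). In the average it was 6 with library size alone (16.7%), 3 with DESeq2 (9.03%), and 1 with effective lengths (5.11%) and transcripts (1.49%). It was also 1 with at least 10 counts (8.7%) and with both sums (6.89% and 6.91%), but these settings held no separate value of Gsta1. Without 1 mouse it was 1 to 4 in the average (4.35% to 6.45%). Between HF.SAAR and RF.SAAR it was 0 with library size alone (0.0273%), the compared groups alone (0.0427%), transcripts (0.0028%) and both sums (0.0341% each). Without 1 mouse it was 0 to 1 there (0.00667% to 0.0465%). The fit without the acinar mice left 1 mouse in each high-fat group, so its log2 fold changes for Gsta2, given above, stand in place of counts.

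With library size alone, the sign turned for Gstp1 (0.078) and Gstt1 (0.062) on regular fat and for Gsta4 between control groups (-0.040). With effective lengths it turned for Gstp2 on regular fat (-0.0117) and Gstt3 in the average (-1.52e-05). Without the acinar mice it turned for Gstp2 on regular fat (-0.0695), Gstt3 in the average (-0.038), Gstt2 between restricted groups (-0.10), Gsta1 (-0.24), Gstt2 (-0.12) and Gstt3 (0.13) between control groups, and the interaction of Gsta4 (-0.025). Without 1 mouse, signs turned on regular fat for Gstp1 (-0.19 to 0.017), Gstp2 (-0.24 to 0.37) and Gstt1 (-0.20 to 0.0094), between control groups for Gsta1 (-0.32 to 0.72), Gsta4 (-0.045 to 0.10) and Gstt2 (-0.023 to 0.28), between restricted groups for Gsta3 (-0.069 to 0.24), and in the average for Gstt3 (-0.0086 to 0.22). By CPM in place of TPM, 10 of 36 ranks of a member in a group moved. Few counts and shared sequence both limit Gsta1.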
